A study of Saturnispora dispora and Saturnispora hagleri and Saturnispora mendoncae with 16 samples.

Results

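Between 4 yeast species of the genus *Saturnispora* grown on glucose, 31 orthogroups were set apart in *Sat. hagleri* (Shag) alone: 17 were higher in Shag than in each of the other species and 14 were lower. An orthogroup is a set of genes in different species that descend from 1 gene of their common ancestor, as inferred from protein sequence, and it is the unit in which expression was compared between species. The members were selected on their measured values. The selection took orthogroups numbered 250 or above with a value in all 16 libraries and a mean of at least 5 TPM (transcript abundance corrected for gene length and set to the same total in every library), which left 4021 of the 5029 orthogroups. A member had a mean log2(TPM + 1) in Shag at least 1 above each, or at least 1 below each, of the means of the other species, while those 3 means spanned less than 1. The higher members made up 0.423% and the lower members 0.348% of the 4021 orthogroups. Since the rule used these values, the levels given here are a description and no test is attached to them.

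The study asked how a high glycolytic rate arose in some *Saturnispora* species, using the extracellular acidification rate (ECAR) as its proxy. RNA was collected from 4 biological replicates each of Shag and *Sat. dispora* (Sdis), which have rapid ECAR and were harvested at 15 h, and of *Sat. mendoncae* (Smen) and *Sat. silvae* (Ssil), which have low ECAR and were harvested at 18 h. Every culture was started at an OD600 of 0.05 in synthetic complete (SC) medium holding 2% glucose and was taken in log phase, after shaking at 225 rpm at room temperature in baffled flasks (50 ml in 250 ml). The labels name the species and no strain or engineered allele, and between Shag and the low ECAR species the hour of harvest cannot be told apart from the species.

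Yeasts with rapid glycolysis can send glucose to ethanol and acetate although oxygen is present, a state called aerobic fermentation. Orthologs in related species usually keep their sequence and role, while their transcript levels can change through their own promoters or through the regulators they share. A pattern that sets 1 species apart differs from one that follows the ECAR class, in which Shag and Sdis would stand together against Smen and Ssil. The tables used here give orthogroup numbers without gene names, so the members are described by rank, with rank 1 the furthest from the nearest other species, and the first and second of each direction also by number.

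Between 8828330 and 12125393 counts fell in genes in the Shag libraries, and between 6196684 and 13928456 in the others. Shag was the most variable species: over the 4021 orthogroups the median SD of log2(TPM + 1) between replicates was 0.295 in Shag, against 0.151 in Sdis, 0.0964 in Smen and 0.0919 in Ssil. Within Shag, replicate 4 was the highest library in 67.9% of the 4021 orthogroups and replicate 3 the lowest in 64.1%, so the members are also given library by library. The TPM scale itself sat at different heights. The median orthogroup was 0.42 higher in Shag than in Sdis and 0.06 higher than in Smen on the log2 scale, and it was 0.63 lower in Shag than in Ssil.

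The 17 higher members had mean levels of 20.1 to 350 TPM in Shag (median 77.4) and of 0.331 to 67.0 TPM over the other 12 libraries (median 24.8). The ratio of the Shag mean to the mean of the nearest species ran from 2.06 to 35.5, with a median of 2.29. The gap, the log2 distance of the Shag mean from the nearest other species, was 1.002 to 3.68 with a median of 1.14. Only the first of them had a gap of at least 2, and 11 of the 17 had a gap under 1.2, so most higher members stood near the threshold. In 16 of the 17, all 4 Shag libraries lay above all 12 others, an order that 5.15% of the 4021 orthogroups showed. A further 76 orthogroups in which the others spanned less than 1 had a gap between 0.5 and 1.

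**Figure D1:**
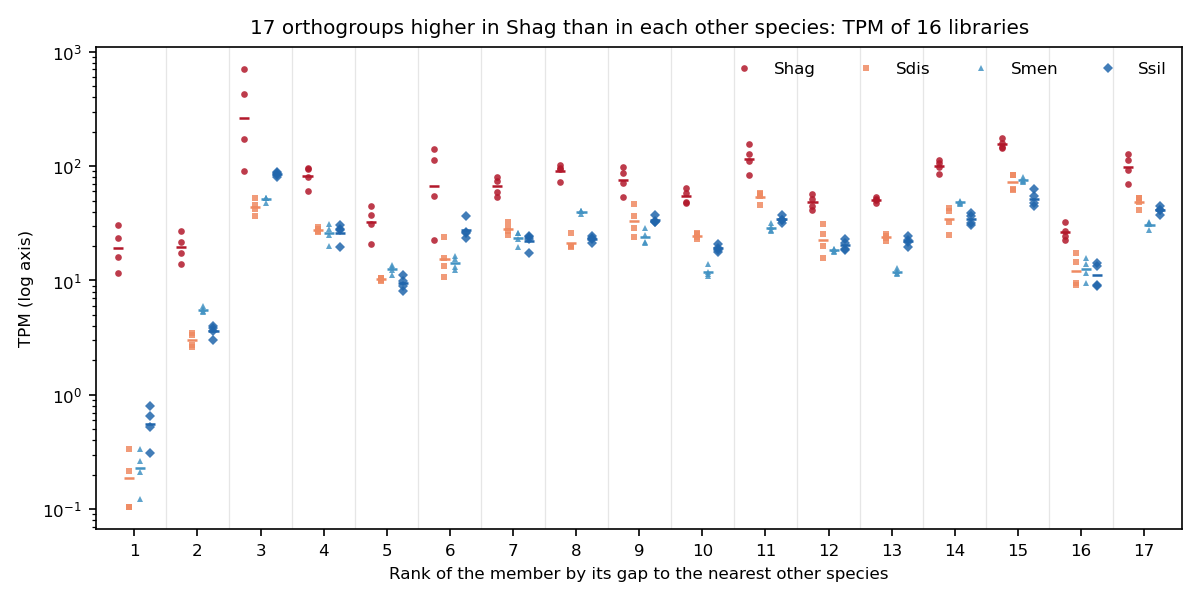
TPM of each library (log axis) for the 17 orthogroups higher in Shag, ordered by rank along the horizontal axis. Points are the 4 libraries of Shag, Sdis, Smen and Ssil from left to right and bars are back-transformed means of log2(TPM + 1). All 4 Shag libraries lie above the other 12 in 16 members, and at rank 6 the lowest Shag library lies among them.

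The first of the higher members, OG0003223, was the nearest to an on-and-off difference. It had 15.98, 23.3, 11.5 and 30.3 TPM in Shag replicates 1 to 4. It had 0.335, 0.214, 0.104 and 0.105 TPM in Sdis, 0.336, 0.122, 0.264 and 0.212 TPM in Smen, and 0.519, 0.310, 0.659 and 0.797 TPM in Ssil. All 12 libraries of the other species were thus under 1 TPM and every Shag library was above 11 TPM, with no overlap. Each species held 1 gene of the orthogroup, with a coding length of 1731 nt in Shag, 1731 nt in Sdis, 1683 nt in Smen and 1626 nt in Ssil. The gene drew 1570 counts over the 4 Shag libraries, against 17 in Sdis, 19 in Smen and 31 in Ssil. The low levels in these 3 species, and the gene and length tied to the orthogroup there, thus rest on few reads. On the log2(TPM + 1) scale, which understates ratios at such low levels, the differences were 4.08 from Sdis, 4.03 from Smen and 3.68 from Ssil. Each had a standard error of 0.21 from a limma fit of all 16 libraries. The fit pooled 1 spread over all 4 species, here and for the other members, so these errors are not specific to a pair of species. The SD in Shag was 0.58, against 0.11 to 0.20 in the others. OG0003223 was also 1 of 2 higher members whose mean over the other 12 libraries was under 5 TPM, that is, which passed the filter on low values through Shag.

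The second, OG0000931, was the other member that passed the filter through Shag. It had 17.5, 21.8, 14.1 and 27.2 TPM in the Shag libraries. Its levels were 2.60 to 3.45 TPM in Sdis, 5.26 to 6.01 TPM in Smen and 3.01 to 3.98 TPM in Ssil. The lowest Shag library was more than 2 times as high as the highest of the other libraries. The gene is long, 3969 nt in Shag and 3873 to 4080 nt in the others. The difference from Smen, the nearest species, was 1.65 with a pooled standard error of 0.16.

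The third and the sixth of the higher members shared another feature, a wide spread inside Shag. The third had 174, 426, 90.8 and 708 TPM in Shag replicates 1 to 4, a 7.79-fold range, and was the most abundant higher member. It had 36.4 to 52.2 TPM in Sdis, 47.8 to 52.8 TPM in Smen and 80.4 to 88.3 TPM in Ssil. Replicate 3 of Shag stood barely above the Ssil libraries while replicate 4 was 8 times as high as they were. The sixth had 54.4, 113, 22.7 and 142 TPM in the Shag libraries, a 6.28-fold range. Its levels were 10.7 to 24.0 TPM in Sdis, 12.3 to 16.3 TPM in Smen and 23.7 to 36.8 TPM in Ssil. It was the only higher member that overlapped, because Shag replicate 3 was under all 4 Ssil libraries and 1 Sdis library. Both genes had nearly the same length in every species, 1080 to 1089 nt for the third and 1017 to 1020 nt for the sixth.

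The remaining higher members were more even within Shag. The fourth had 79.6, 97.0, 60.9 and 95.2 TPM in Shag and 19.7 to 31.4 TPM in the other libraries, whose species means spanned only 0.10 on the log2 scale. The thirteenth was the steadiest in Shag, with 50.1, 47.8, 51.5 and 53.3 TPM, against 21.97 to 25.7 TPM in Sdis, 11.3 to 12.9 TPM in Smen and 19.6 to 24.6 TPM in Ssil. The fifteenth was the next most abundant after the third, with 147, 159, 143 and 175 TPM in Shag and 45.0 to 83.9 TPM in the other species. In these 3 every Shag library stood clear of the others. Over all higher members the ratio of the highest to the lowest Shag library had a median of 1.59 and was at least 2 in 4 of 17, where 25.1% of the 4021 orthogroups reached that ratio.

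The 14 lower members had mean levels of 7.63 to 564 TPM in Shag (median 32.7) and of 25.7 to 1562 TPM over the other 12 libraries (median 105). The gap was −1.04 to −2.65 with a median of −1.27, and 3 of the 14 had a gap beyond −2. The ratio of the nearest species' mean to the Shag mean was 1.74 to 6.89, with a median of 2.30. In 11 of the 14 all 4 Shag libraries lay below all 12 others, which 2.34% of the 4021 orthogroups did. A further 28 orthogroups in which the others spanned less than 1 had a gap between −0.5 and −1. None of the 14 was near 0 in Shag: the fewest counts in any Shag library were 39, and no member was under 1 TPM in all 4.

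**Figure D2:**
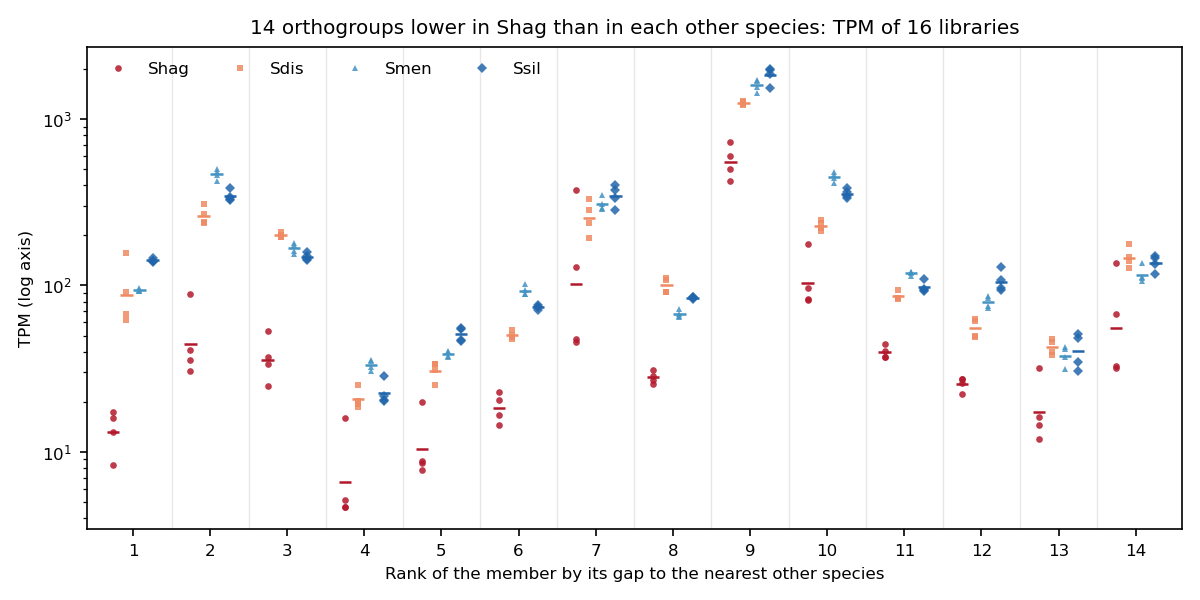
TPM of each library (log axis) for the 14 orthogroups lower in Shag, ordered by rank. Points are the 4 libraries of Shag, Sdis, Smen and Ssil from left to right and bars are back-transformed means of log2(TPM + 1). The Shag libraries lie below all others in 11 members, and at ranks 7, 13 and 14 the highest Shag library lies among them.

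OG0003964, the first of the lower members, had 13.1, 16.04, 8.31 and 17.4 TPM in Shag replicates 1 to 4. It had 157, 91.8, 62.1 and 67.3 TPM in Sdis, 92.6, 92.7, 94.2 and 96.3 TPM in Smen, and 147, 141, 141 and 139 TPM in Ssil. The highest Shag library was more than 3 times lower than the lowest library of any other species, although Sdis itself varied more than 2-fold. The differences were −2.65 from Sdis, −2.74 from Smen and −3.33 from Ssil, each with a pooled standard error of 0.24. The SD was 0.44 in Shag and 0.60 in Sdis, against 0.03 in Smen and 0.04 in Ssil. The gene is one of the longer ones, 3084 nt in Shag and in Sdis, 3072 nt in Smen and 3075 nt in Ssil, and its lowest Shag library held 339 counts.

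The second, OG0001556, is at the other end in length, with a coding sequence of 231 nt in Shag and Sdis and 234 nt in Smen and Ssil. Its levels were 41.0, 35.4, 89.0 and 30.7 TPM in the Shag libraries. They were 236 to 307 TPM in Sdis, 422 to 498 TPM in Smen and 328 to 387 TPM in Ssil. The libraries did not overlap, but Shag replicate 3 was more than 2 times as high as the next Shag library. The difference from Sdis, the nearest species, was −2.52 with a pooled standard error of 0.22. The SD was 0.67 in Shag and 0.17 in Sdis. The third, of 453 nt in all 4 species, had 37.1, 33.5, 53.0 and 24.9 TPM in Shag, against 194 to 210 TPM in Sdis, 154 to 179 TPM in Smen and 142 to 158 TPM in Ssil. It was the only lower member for which Ssil was the nearest species.

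The most abundant of all members was the ninth of the lower ones. It had 423, 603, 499 and 731 TPM in Shag, against 1208 to 1278 TPM in Sdis, 1430 to 1705 TPM in Smen and 1547 to 2001 TPM in Ssil. Shag was thus clear of every other library, with a gap of −1.17. The eighth and the eleventh were the steadiest in Shag. The eighth had 25.7, 27.1, 31.2 and 28.8 TPM in Shag and 64.2 to 111 TPM in the others, and the eleventh had 37.0, 37.1, 44.7 and 40.6 TPM in Shag and 82.4 to 121 TPM in the others.

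In 7 lower members Shag replicate 3 was at least 1.8 times as high as any other Shag library. The seventh had 129, 47.9, 373 and 45.9 TPM in Shag, an 8.13-fold range that was the widest among all members, against 192 to 329 TPM in Sdis, 287.1 to 348 TPM in Smen and 283.7 to 401 TPM in Ssil. Replicate 3 was therefore inside the range of the other species while replicates 2 and 4 were about 4 times lower than any of them. The fourteenth had 67.0, 32.1, 136 and 33.0 TPM in Shag, against 106 to 178 TPM in the others, and the thirteenth had 16.3, 11.9, 31.8 and 14.6 TPM in Shag, against 30.5 to 51.1 TPM. In these 3 the other 3 Shag libraries lay below all 12 others and replicate 3 did not. The fourth, with 5.14, 4.65, 16.02 and 4.68 TPM, the fifth, with 8.86, 7.81, 19.9 and 8.52 TPM, and the tenth, with 95.9, 81.3, 178 and 83.4 TPM, showed the same order but stayed clear of the other species, as did OG0001556.

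Compared library by library with the mean of the nearest other species, Shag replicate 3 was the one that departed least. Of the 17 higher members, 17 were at least 1 above that mean in replicate 4, 16 in replicate 2, 11 in replicate 1 and 4 in replicate 3. Of the 14 lower members, 12 were at least 1 below it in replicate 4, 13 in replicate 2, 12 in replicate 1 and 7 in replicate 3. Replicate 3 was on the far side of the nearest mean for 1 higher member, the sixth, by −0.29, and for 2 lower members, the seventh by 0.55 and the fourteenth by 0.23. The direction was thus that of the member in replicates 1, 2 and 4 for all 31 members and in replicate 3 for 28. The selection on the mean of these 4 libraries makes this likely, so it describes the members and is no support for them.

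**Figure D3:**
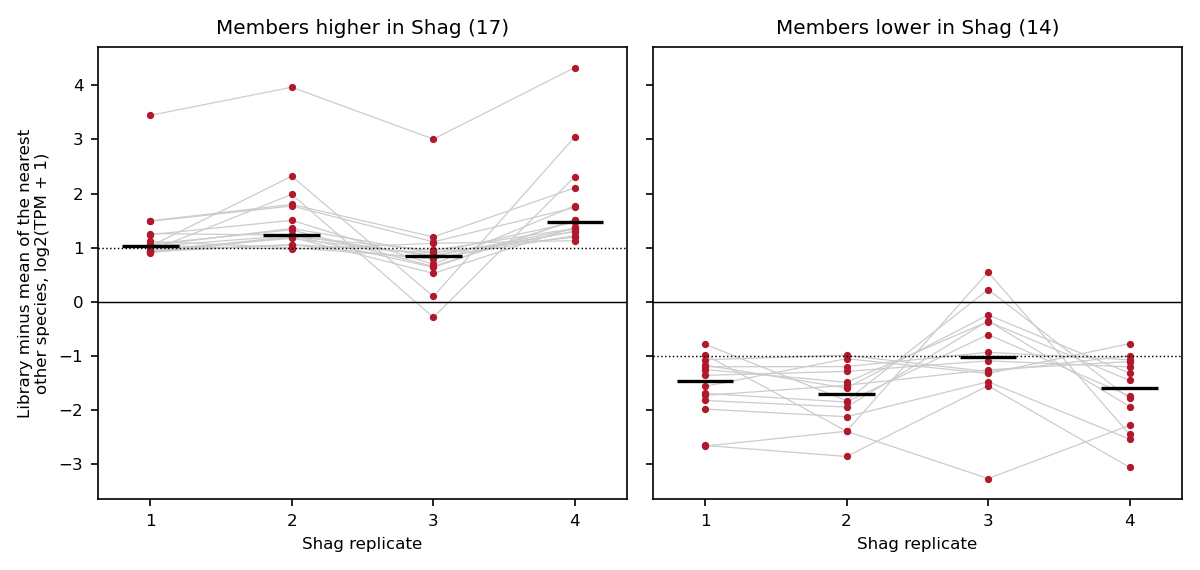
Difference of each Shag library from the mean of the nearest other species (log2(TPM + 1)) for the members higher (left) and lower (right) in Shag. Each point is 1 member, thin lines join the values of 1 member, bars are medians and dotted lines mark 1 and −1. The medians are 1.04, 1.23, 0.84 and 1.48 in replicates 1 to 4 on the left and −1.46, −1.70, −1.01 and −1.59 on the right.

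In the higher members the order of the Shag libraries was that of most orthogroups, while in the lower members it was not. Replicate 4 was the highest Shag library in 16 of 17 higher members and replicate 3 the lowest in 15 of 17, beside 67.9% and 64.1% of the 4021 orthogroups. In the lower members replicate 3 was the highest Shag library in 10 of 14, where this held for 21.1% of the 4021. After the libraries were rescaled by the median ratio over orthogroups, replicate 3 was the highest in 11 of the 14 lower members and replicate 4 the lowest in 10, against 36.1% and 32.4% of all. In the higher members the rescaled order was looser, with replicate 4 the highest in 9 of 17 and replicate 3 the lowest in 11, against 36.9% and 45.7% of all. The median SD of the lower members in Shag was 0.482 in TPM and 0.654 after rescaling, while that of all 4021 was 0.295 and 0.206. What sets replicate 3 apart from replicate 4 was not tested.

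Sdis shares the ECAR class and the hour of harvest with Shag, and it was the nearest species for 7 of the 17 higher and 10 of the 14 lower members. Among the higher members Smen was the nearest for 6 and Ssil for 4, and among the lower members Smen for 3 and Ssil for 1. For a higher member the nearest species is the highest of the other 3, and for a lower member the lowest. Over all orthogroups the rule could take, Ssil was the highest of these 3 in 63.6%, Smen in 20.1% and Sdis in 16.3%. Sdis was the lowest in 55.2%, Smen in 27.8% and Ssil in 17.1%. What shapes the counts of the members was not tested, and nothing is read from them.

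**Figure D4:**
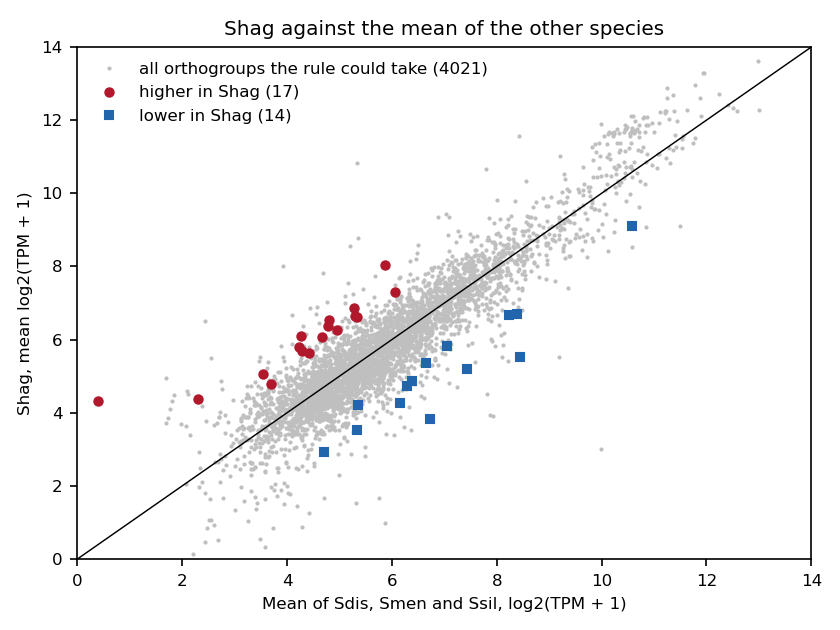
Mean log2(TPM + 1) in Shag (vertical axis) against the mean of the Sdis, Smen and Ssil means (horizontal axis) for the 4021 orthogroups, with the diagonal as a line. The 17 higher members (circles) and 14 lower members (squares) run along the edges of the cloud, and OG0003223 stands alone at the far left. Grey points as far from the line belong to orthogroups in which the other 3 species differed among themselves or which did not meet the rule.

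The edges of the selection were not sharp. The 3 higher members just inside the threshold had gaps of 1.002, 1.02 and 1.03, and the 3 orthogroups just outside had 0.99, 0.98 and 0.96. For the lower members these were −1.04, −1.08 and −1.08 inside and −0.97, −0.95 and −0.83 outside. A further 16 orthogroups were at least 1 above and 30 at least 1 below all other species but were left out because the other 3 spanned 1 or more. The same rule applied to each other species took 31 higher and 64 lower orthogroups in Sdis, 66 and 81 in Smen and 526 and 124 in Ssil. Shag had the fewest in both directions together on this scale. In TPM the median orthogroup stood at 5.56 in Shag, 5.14 in Sdis, 5.51 in Smen and 6.34 in Ssil (log2). The rule was not applied to the other species after rescaling, so nothing is read from this order of the species.

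The counts depended on the scale. After median-ratio rescaling, which brought the median difference between Shag and each other species under 0.01, the rule took 9 higher and 22 lower orthogroups in place of 17 and 14, and 3 of the 17 and 5 of the 14 were among them. After quantile normalization it took 12 and 27, with 3 and 6 of the members. All 31 members kept the sign of their gap under both, and the median gap was 0.78 for the higher and −1.12 for the lower members after rescaling. Of the 17 higher members, 10 fell under a gap of 1 and 4 kept it while the other species spanned 1 or more, and of the 14 lower members 4 and 5 did so. The rule also rested on 1 library, since without Shag replicate 4 it took 9 higher orthogroups, all of them members, and 11 lower ones.

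**Figure D5:**
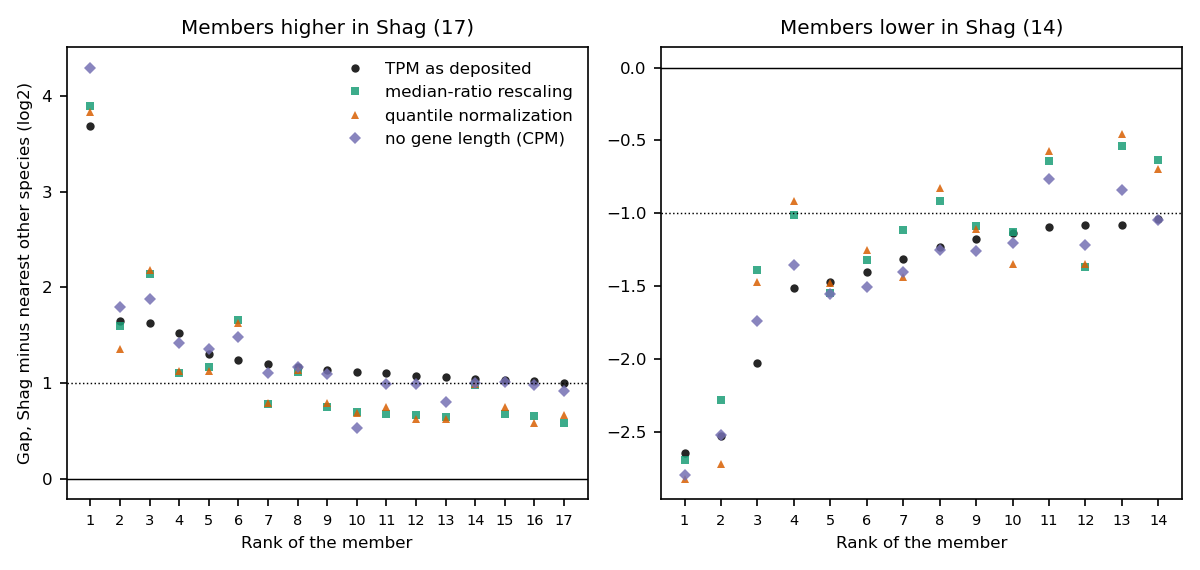
Gap between Shag and the nearest other species (log2) for each member by rank, in TPM as deposited (circles), after median-ratio rescaling (squares), after quantile normalization (triangles) and without division by gene length (diamonds). Every value keeps its sign; dotted lines mark the threshold of 1 and −1, and most higher members from rank 7 on fall under it after rescaling.

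OG0003964 and the fifth of the lower members met the rule under all 9 other settings and without each of the 16 libraries in turn. No higher member did. The third and the sixth of the higher members and the seventh of the lower ones met it under all 9 settings but not without every library, and 7 of the 17 higher and 10 of the 14 lower members met it without each library in turn. OG0003223 had larger gaps under the other scales, 3.89 after rescaling, 3.83 after quantile normalization and 4.30 without gene length. It left the rule without any 1 of the Shag libraries because its mean TPM then fell under 5, and likewise under a minimum of 20 TPM, and with a pseudocount of 0.1 because the other species then spanned 1 or more.

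A limma fit over 4232 orthogroups of any number gave the background for these counts. It called 6.71% of them higher in Shag than in each of the other species, and 180, 4.25%, lower, at a Benjamini-Hochberg adjusted p of 0.05. All 17 higher and all 14 lower members were among the calls, which their selection on the same values made likely and which is no support for them. With median-ratio rescaling the fit called 346 higher and 315 lower of the same 4232. Of these, 177 and 136 were shared with the first fit, and 11 of the 14 lower members remained called. In edgeR with gene length as an offset the counts were 362 and 268 of 4182 orthogroups. They held all 17 higher and 11 of the 14 lower members, which is likewise no support for members chosen on the same libraries.

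The number of genes in an orthogroup entered the rule through the limit on orthogroup numbers and the need for a value in every library. It also entered through TPM, which rests on counts and lengths summed over the genes. Coding length entered only through TPM. All 31 members were tied to exactly 1 gene in every species, as were 99.3% of the 4006 of the 4021 orthogroups that could be tied in all species, so no member was tied to more genes in Shag. The coding length in Shag was within 10% of the median of the others in 14 of 17 higher and 14 of 14 lower members, beside 91.2% of the 4006. The median length in Shag was 1122 nt for the higher and 992 nt for the lower members, against 1263 nt over all.

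TPM divides by length, and a few members had unequal ones. The tenth of the higher members had a coding length of 1263 nt in Shag, against 1812 nt in Sdis, 1746 nt in Smen and 1206 nt in Ssil, and its gap of 1.11 became 0.53 in CPM, in which counts are set to a common total without length. The thirteenth had 2625 nt in Shag and 3009 to 3150 nt in the others, and its gap became 0.80. The twelfth had 1035 nt in Shag and 1038 nt in Sdis but 840 nt in Smen and 828 nt in Ssil, with a gap of 0.99. Among the lower members the eleventh had 1683 nt in Shag and in Sdis, 2709 nt in Smen and 1401 nt in Ssil, and its gap of −1.10 became −0.77. Without gene length 11 of the 17 higher and 12 of the 14 lower members still met the rule, and all 31 kept their sign.

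The gene numbers in the files follow a gene order that the species largely share. Of 3397 pairs of single genes with consecutive numbers in Shag, 99.0% were at most 5 numbers apart in Sdis, 97.8% in Smen and 96.9% in Ssil. Of the 465 possible pairs of members, 3 (0.645%) lay within 20 numbers of each other in every species, as did 0.533% of all pairs of the 3978 orthogroups with 1 gene in each species, a share close to that of the members. The twelfth and the thirteenth of the higher members were 4 numbers apart in all 4 species, and both were moderately higher in Shag. The fifth of the higher and the ninth of the lower members were also 4 numbers apart in all 4 species, yet stood apart in opposite directions. OG0000931 and the eleventh of the lower members were 12 numbers apart in Shag, 13 in Sdis, 11 in Smen and 12 in Ssil. No orthogroup numbered between the 2 members of a pair reached a gap of 1: the highest was 0.59 among the 3 between the twelfth and the thirteenth, 0 among the 3 of the next pair and 0.70 among the 10 of the last.

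Some members were near each other in only part of the genus. Within 20 numbers in at least 1 species lay 12 of the 465 pairs of members (2.58%), against 1.145% of all pairs. These pairs share members and are not separate cases. The seventh, ninth and seventeenth of the higher members and the eighth of the lower members all lay within 17 numbers of each other in Smen and Ssil. Of these, the seventh and the seventeenth were 2 numbers apart in Smen and 1 in Ssil, but 223 apart in Shag and 1411 in Sdis. The fifth and the twelfth of the lower members were 16 apart in Sdis, Smen and Ssil and 1866 apart in Shag. The reverse also occurred: the seventh of the higher and the twelfth of the lower members were 17 apart in Shag and 467 to 3732 apart elsewhere, and the sixteenth of the higher and the fourteenth of the lower were 17 apart in Shag and 1537 to 2006 apart elsewhere. The seventh of the higher and the eighth of the lower members were 12 apart in Shag, 11 in Smen and 12 in Ssil, and 1301 apart in Sdis. Numbers that jump between contigs look the same as a rearrangement, and chromosome positions were not used here.

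None of the members held any of 10 genes of sugar uptake, glycolysis, fermentation or their regulation that could be tied to an orthogroup through gene IDs in the study's tables. Other genes of these pathways, among them *PYK* (pyruvate kinase) and *PDC* (pyruvate decarboxylase), were not analysed here. Of the 10, *HXT* (hexose transporters), *PFK* (phosphofructokinase) and *ADH* (alcohol dehydrogenase) belong to orthogroups numbered under 250, and *TPI* (triose phosphate isomerase) has no value in Sdis, so the rule could not take them. The gap was 0.12 for *HXT*, 0.31 for *PFK* and 0 for *ADH*. The Shag libraries averaged 5829 ± 1113 TPM for *TPI*, while Smen libraries had 2441 ± 94.1 and Ssil libraries 2582 ± 226 TPM (SD, n = 4 each). This is a gap of 1.16 from the nearer of these low ECAR species. Without Sdis, a pattern of Shag alone cannot be told apart here from one that follows the ECAR class. The other 6 could have been taken and were not: the gap was 0.35 for *HXK* (hexokinase), 0.25 for *FBA* (aldolase), 0.08 for *TDH* (glyceraldehyde-3-phosphate dehydrogenase), 0.01 for *GPM* (phosphoglycerate mutase), 0.01 for *ENO* (enolase) and 0 for *GAL4* (a transcription factor that activates galactose genes in *Saccharomyces cerevisiae*). In *Sat. dispora* the study found *GAL4* to be required for rapid ECAR and for activity of the *TDH* promoter. A gap of 0 places Shag inside the range of the other species.

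Summed over the members, the higher group made up 947 to 2108 TPM of a Shag library, against 411 to 553 TPM of the other 12 libraries. The lower group made up 939 to 1523 TPM of a Shag library, against 2792 to 3898 TPM of the others. Single members weighed heavily in these sums. The ninth of the lower members alone gave 423 to 731 TPM in Shag and 1208 to 2001 TPM in the others. The third of the higher members gave 90.8 to 708 TPM in Shag. The Shag sums did not overlap those of the others in either direction, as the rule leads to, and the lowest higher sum and the highest lower sum in Shag were both those of replicate 3.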

How the data were processed

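RNA-seq was analysed from 4 biological replicates each of Shag, Sdis, Smen and Ssil. The authors sequenced poly(A) RNA in pairs of 150 bp, trimmed with Trimmomatic 0.30, aligned to each species' genome with HISAT2 2.1.0 and counted with HTSeq 2.0.3. The deposited values per gene are expected counts, since pairs that matched several genes were shared in fractions. The authors summed counts and lengths per OrthoFinder orthogroup and deposited TPM from edgeR. Genome builds are not given in the sources used here. TPM is relative to each library's own total, so a change in abundant genes moves all others.

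Members were found on log2(TPM + 1), computed from the deposited TPM; earlier results of these data were known when the members and lists were chosen. Members were ranked by gap, and the first 2 in each direction are named by number, as are genes named in the study's tables. Genes were tied to orthogroups by equal proportions over 4 libraries (tolerance 1e-08, at least 15 counts). This gave whole lengths, and for single genes with few counts a whole length was a condition for keeping the tie. The linking and limma were tested on simulated data. The background fit was limma 3.58.1 (R 4.3.3, variance trend, all orthogroups averaging 5 TPM or more and expressed in each species, Benjamini-Hochberg adjustment). Rounded gene counts went into edgeR 4.0.16 and DESeq2 1.42.0, both corrected for coding length; DESeq2 left 1 adjusted p as NA. Alternatives were pseudocounts of 0.1 and 5, no filter or one of 20 TPM, rescaling, quantile normalization, no gene length, medians of replicates, all orthogroup numbers, and each library left out. From 2.50% to 16.3% of reads lay outside genes and were left out. No replicates were alike within sampling noise (chi-square per degree of freedom at least 4.40).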

Additional observations from a re-analysis of the deposited data

Results flagged for a closer look

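Among the 4 libraries of each species, 124 groups of values were examined over the 31 members, and in 7 of them 1 library lay far from its 3 companions by Dixon's criterion, which chance meets in about 1 in 20 groups. Shag gave 2 of these. The fourth of the lower members had 16.02 TPM in Shag replicate 3 and 4.65 to 5.14 TPM in the other Shag libraries, and the fifth had 19.9 TPM in Shag replicate 3 and 7.81 to 8.86 TPM in the others. The remaining 5 were in higher members and outside Shag, and none reached the Shag libraries. The third had 47.8 TPM in Smen replicate 3 and 52.6 to 52.8 TPM in the others. The seventh had 17.3 TPM in Ssil replicate 1 and 23.2 to 24.7 TPM in the others. The eighth had 25.8 TPM in Sdis replicate 1 and 19.5 to 19.99 TPM in the others. The ninth had 37.3 TPM in Ssil replicate 1 and 32.3 to 32.9 TPM in the others. The seventeenth had 27.5 TPM in Smen replicate 4 and 31.4 to 32.2 TPM in the others.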

How the results depend on the processing

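The number of higher members was 17 and moved to 9 with median-ratio rescaling. The number of lower members was 14 and moved to 22 with median-ratio rescaling and 27 with quantile normalization. With single libraries left out, the higher members numbered 9 (without Shag replicate 4) to 24 (without Shag replicate 3) and the lower members 11 to 20. The limma calls lower in Shag, 180, moved to 315 with median-ratio rescaling, 332 with quantile normalization and 297 in DESeq2. The counts stayed within 1.5 times of the first value under the remaining alternatives, although the orthogroups counted were partly different ones; why the scales differ was not tested. With the replicate number as a block, limma called 174 lower in place of 180, and the calls of higher orthogroups changed as little. Correlations between the deviations of same-numbered libraries ran from −0.34 to 0.39 and were not all above 0.1, so the numbers were not taken to pair the libraries, although replicate 3 of Shag deviated together with replicate 3 of Sdis (0.39) and of Ssil (0.33). Depth limits OG0003223 outside Shag, where 17 to 31 counts per species stand behind its level.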
